A study of Homo sapiens with 6 samples.

Results

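NR0B1, NKX2-2, BCL11B, PRKCB, VRK1, PPP1R1A, STEAP1, STEAP2, FCGRT and GSTM4 are known target genes that EWS-FLI1 switches on, EWS-FLI1 being the fusion transcription factor of Ewing sarcoma. They were taken by symbol from the deposited table, and 10 of the 10 names were found among its 25268 gene symbols. RNA came from A673, an established line from an Ewing sarcoma with an EWSR1-FLI1 fusion, at 72 h of transfection with esiRNA, which is a pool of short interfering RNAs cut from long double-stranded RNA. The 3 groups had 2 libraries each: esiGFP against GFP as the non-targeting control, esiFLI1 to lower EWS-FLI1, and esiUSP9X to lower USP9X, a deubiquitinase. All groups were transfected A673 cells in the same medium, so each group is a single cell line, and no untransfected cells or second line were analysed here. Protein and binding to DNA were not analysed here either, so "activated" is background knowledge here.

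In EWS-FLI1 the amino-terminal part of EWSR1 is fused to the ETS domain of FLI1, a transcription factor of the ETS family. ETS domains bind a GGAA core, and EWS-FLI1 also binds runs of repeated GGAA units, where it can open chromatin and act as an activator. NR0B1 and NKX2-2 are known for being needed for the transformed growth of Ewing sarcoma cells, and NKX2-2 and STEAP1 are used as markers of the tumour.

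The upstream sequences show where the ETS core lies near the start sites of these genes. RefSeq promoter windows on GRCh38.p14 were matched for 8 of the 10 genes (10 windows, as NKX2-2 and STEAP2 have 2 start sites each), and the 250 bases before each start were searched on both strands. The motifs were GGAA (TTCC on the other strand), the repeat GGAAGGAA and the longer ETS site CCGGAAGT, and matches of different motifs may overlap. Below are 2 upstream windows with the most GGAA matches, the window of STEAP1, a gene called by both fits, and a window with no match. Letters run 5′ to 3′ on the strand of the gene, and capitals mark GGAA or TTCC.
NR0B1 (chrX:30309391-30309640, minus strand): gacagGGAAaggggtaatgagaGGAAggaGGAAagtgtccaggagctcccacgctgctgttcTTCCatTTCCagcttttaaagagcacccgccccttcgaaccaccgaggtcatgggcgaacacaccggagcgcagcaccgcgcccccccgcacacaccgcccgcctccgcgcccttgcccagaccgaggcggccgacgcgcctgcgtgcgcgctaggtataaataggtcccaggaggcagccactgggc
FCGRT (chr19:49512411-49512660, plus strand): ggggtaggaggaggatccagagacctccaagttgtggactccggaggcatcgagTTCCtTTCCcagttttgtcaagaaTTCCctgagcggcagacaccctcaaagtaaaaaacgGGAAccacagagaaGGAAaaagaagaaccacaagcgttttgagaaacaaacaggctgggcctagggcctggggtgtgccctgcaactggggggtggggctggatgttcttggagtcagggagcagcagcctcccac
STEAP1 (chr7:90154219-90154468, plus strand): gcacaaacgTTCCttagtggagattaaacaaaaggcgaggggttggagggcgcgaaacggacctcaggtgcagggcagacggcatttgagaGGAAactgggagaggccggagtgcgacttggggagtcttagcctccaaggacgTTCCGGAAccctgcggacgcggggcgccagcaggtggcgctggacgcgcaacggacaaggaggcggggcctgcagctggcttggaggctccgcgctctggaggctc
BCL11B (chr14:99272198-99272447, minus strand): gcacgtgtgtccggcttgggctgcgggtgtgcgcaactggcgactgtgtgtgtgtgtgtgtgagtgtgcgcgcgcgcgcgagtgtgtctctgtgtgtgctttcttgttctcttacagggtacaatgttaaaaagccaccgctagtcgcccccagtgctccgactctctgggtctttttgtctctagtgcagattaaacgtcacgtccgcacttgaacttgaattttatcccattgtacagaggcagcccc

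GGAA was found upstream of 6 of the 8 genes, in 7 of their 10 windows, while 92.7% of all 35116 windows of the same length held it. NR0B1 and FCGRT had 5 matches each, STEAP1 and the first STEAP2 window 4 each, and GSTM4 and the second STEAP2 window 3 each. The first NKX2-2 window had 1, and the second NKX2-2 window, PRKCB and BCL11B had 0. No window was matched for VRK1 or PPP1R1A. The repeat GGAAGGAA was in 0 of the 10 windows and in 3.06% of all windows, and CCGGAAGT was in 0 of the 10 and in 3.42%. These windows are short, and the GGAA repeats through which EWS-FLI1 is known to act on NR0B1 lie farther upstream than the bases shown.

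Values are FPKM, fragments scaled by the length of the transcript and the mapped fragments of the library, so levels can be set side by side between genes. The 10 genes each reached 1 FPKM in 6 of 6 libraries and were among the 12169 genes kept for testing. The libraries' read depth is unknown. FPKM sums ranged from 781732 to 907926, of which the symbol MIR6723 held 33.2% to 50.9%, so other FPKM values may depend on that share. The details of the authors' scaling are not given, and such a dependence was not tested. FLI1 itself, the check of the knockdown, stood in esiFLI1 at 52.5% and 38.8% of the control library with the same replicate number (limma's blocked adjusted p = 4.4e-04; 0.13 without the block). EWSR1 stood there at 89.3% and 72.5% (limma's blocked adjusted p = 0.048; 0.48 without the block). Values per symbol do not separate fusion RNA from RNA of the unfused genes, so the fusion RNA itself was not measured. USP9X in esiUSP9X stood at 25.8% and 26.7% of its control (limma's blocked adjusted p = 4.5e-04; 1 without the block). Of 5 Ewing sarcoma markers, which include members of the 10, EWSR1, FLI1, NR0B1 and NKX2-2 were above 1 FPKM, while CD99 was listed at 0 in 6 of 6 libraries. A listed 0 cannot be read as absence in this table, since EEF1A1, a translation factor every cell uses, was at 0 in the 2 control libraries too and at 2928 FPKM or more elsewhere. PRKCB, BCL11B and FCGRT are also known from blood and endothelial cells, and of 5 blood and 4 endothelial markers only CD68 and KDR passed the filter. CD68, a macrophage gene, had 3.77 and 2.73 FPKM in the control libraries, against 7.59 and 4.49 after esiFLI1 (log2 change 0.70, limma's blocked adjusted p = 0.0078; 0.32 without the block), a call lost without esiFLI1 1 (blocked 0.078). KDR, an endothelial receptor of VEGF, went from 0.11 and 0.088 to 1.30 and 1.33 FPKM (1.08, limma's blocked adjusted p = 6.0e-04, and 0.019 without the block). It passed the filter only through the esiFLI1 libraries, which favoured a rise. The call of KDR without the block was lost when any 1 esiGFP or esiUSP9X library was left out. Without either esiFLI1 library KDR was not tested. The leukocyte gene PTPRC stood at 0.0201 FPKM or less in every library. In such bulk samples, fewer cells of a kind and less RNA per cell cannot be told apart.

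**Figure D1:**
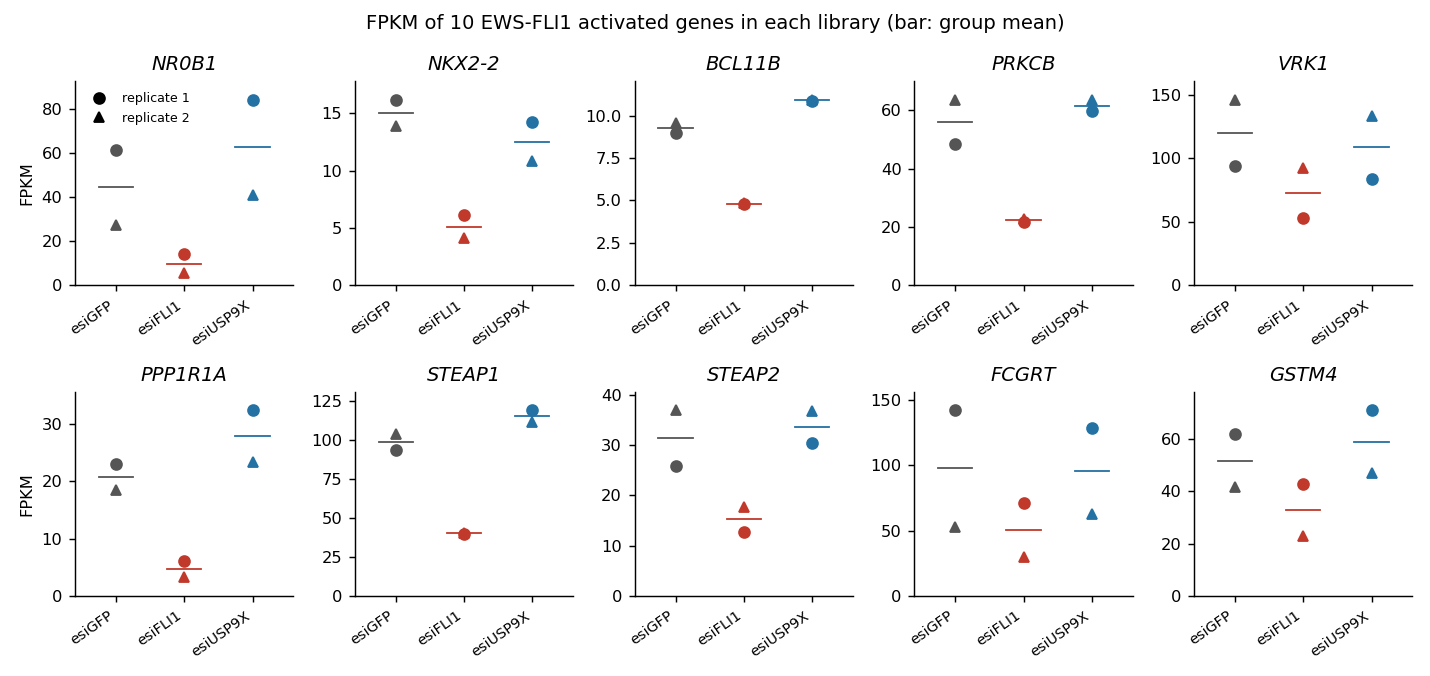
FPKM of each of the 10 genes (vertical axes, each from 0) in the esiGFP, esiFLI1 and esiUSP9X libraries, with circles for replicate 1, triangles for replicate 2 and a bar at the group mean. The esiFLI1 libraries lie below both control libraries for 8 genes, and for FCGRT and GSTM4 the groups overlap, with replicate 1 above replicate 2 in every group.

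By mean FPKM the most abundant of the genes in control cells was VRK1, at 120 ± 36.9 (SD, n = 2, as for all means here). STEAP1 followed at 98.9 ± 7.19, then FCGRT at 97.4 ± 62.9, PRKCB at 56.2 ± 10.7 and GSTM4 at 51.7 ± 14.3. FCGRT was above VRK1 in esiGFP 1 (142 against 93.9) and below it in esiGFP 2 (53.0 against 146). NR0B1 stood at 44.5 ± 23.9, STEAP2 at 31.4 ± 7.79, PPP1R1A at 20.8 ± 3.16, NKX2-2 at 15.0 ± 1.62 and BCL11B at 9.27 ± 0.40. From VRK1 down to STEAP2 each gene's control libraries overlapped those of the next gene in this order. STEAP2, PPP1R1A, NKX2-2 and BCL11B were separated from one another. Among the 12169 kept genes, mean control FPKM ranked VRK1 at 713 and BCL11B at 6867.

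Setting esiFLI1 against esiGFP asks which of the 10 genes lost RNA when FLI1 RNA was lowered. All 10 were lower in esiFLI1 in both same-numbered pairs of libraries, as were 43.7% of all tested genes. Their mean FPKM in esiFLI1 was between 22.2% (NR0B1) and 63.7% (GSTM4) of the control mean. The test was limma on log2(FPKM + 1), with Benjamini-Hochberg adjustment over all kept genes and calls at an adjusted p under 0.05. Without a term for the replicate number, STEAP1 and PRKCB were called, 2 of 10, where 0.23% of all tested genes were called lower. Same-numbered libraries deviated from their group means together, and in the fit that adds the replicate number (the blocked fit) 10 of 10 were called lower, where 21.6% of all tested genes were. The median log2 change of the 10 was -1.13, beside -0.03 over all tested genes, and 5.73% of all tested genes were as low as or lower than GSTM4, the least changed of the 10 (-0.67). The labels do not say that replicates were separate cultures, so p-values cover only the spread between the libraries, which may be technical.

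**Figure D2:**
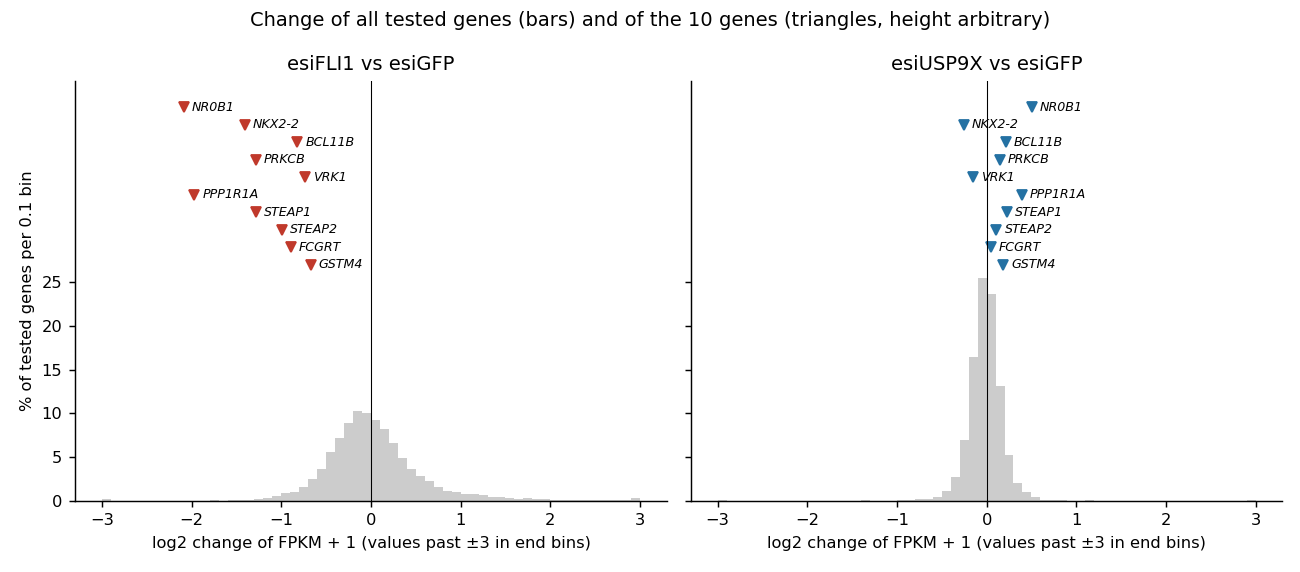
Distribution of log2 changes of FPKM + 1 over all 12169 tested genes (grey bars, % of genes per 0.1 bin, values past 3 collected in the end bins) with the 10 genes as triangles at arbitrary height, for esiFLI1 (left) and esiUSP9X (right) against esiGFP. In esiFLI1 the triangles lie from -2.09 to -0.67, and in esiUSP9X from -0.25 to 0.50.

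The transcription factors NR0B1, NKX2-2 and BCL11B were the first group. NR0B1, an orphan nuclear receptor also called DAX1 that lacks a classical DNA-binding domain and acts mostly as a corepressor, had 61.4 and 27.6 FPKM in the control libraries, against 14.3 and 5.46 after esiFLI1. The groups did not overlap, although replicate 2 was less than replicate 1 by more than 1 on the log2 scale in both. Its log2 change was -2.09 (SE 0.10, adjusted p = 1.1e-05 by limma's blocked fit; SE 0.63, adjusted p = 0.19 without the block), the largest fall of the 10. NKX2-2, a homeobox factor that represses transcription in these tumours, measured 6.09 and 4.15 FPKM after esiFLI1, against 16.2 and 13.9 in the controls. Both knockdown libraries lay well under both controls, and the log2 change was -1.40 (SE 0.11, limma's blocked adjusted p = 8.3e-05; 0.065 without the block). BCL11B, a zinc finger repressor best known from T cells and neurons, stood at 8.99 and 9.55 FPKM with esiGFP and at 4.78 and 4.83 with esiFLI1. Replicates agreed closely in both groups, and the log2 change was -0.82 (SE 0.10, limma's blocked adjusted p = 6.5e-04; 0.089 without the block).

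PRKCB, VRK1 and PPP1R1A act in protein phosphorylation. PRKCB, a calcium-dependent protein kinase C, had 48.6 and 63.7 FPKM in the control libraries, against 21.9 and 22.6 after esiFLI1. The knockdown libraries were close to each other and far under the controls, with a log2 change of -1.29 (SE 0.20, adjusted p = 0.046 by limma without the block; SE 0.11, 1.6e-04 with it). PPP1R1A, which inhibits protein phosphatase 1 once it is phosphorylated by protein kinase A, measured 6.07 and 3.31 FPKM after esiFLI1, against 23.0 and 18.5 in the controls. It had the second largest fall, -1.97 (SE 0.12, limma's blocked adjusted p = 3.1e-05; 0.052 without the block). VRK1, a nuclear kinase of histones and of the chromatin protein BANF1, stood at 93.9 and 146 FPKM with esiGFP and at 52.8 and 92.3 with esiFLI1. The highest knockdown library came just under the lowest control, and the log2 change was -0.74 (SE 0.10, limma's blocked adjusted p = 9.0e-04; 0.49 without the block).

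STEAP1, STEAP2 and FCGRT are membrane proteins and GSTM4 is a cytosolic enzyme. STEAP1, a transmembrane haem protein of the metalloreductase family, had 93.8 and 104 FPKM in the control libraries, against 39.7 and 40.5 after esiFLI1. The groups stood far apart with little spread inside each, at a log2 change of -1.28 (SE 0.16, adjusted p = 0.027 by limma without the block; SE 0.10, 9.2e-05 with it). STEAP2, a relative that has the NADPH-binding reductase domain which STEAP1 lacks, measured 12.8 and 17.8 FPKM after esiFLI1, against 25.9 and 36.9 in the controls. The groups did not overlap, and the log2 change was -0.99 (SE 0.10, limma's blocked adjusted p = 3.3e-04; 0.16 without the block). FCGRT, the neonatal Fc receptor that recycles IgG and albumin, stood at 142 and 53.0 FPKM with esiGFP and at 71.3 and 29.8 with esiFLI1. Here the groups overlapped, yet each esiFLI1 library had 50.2% or 56.2% of its same-numbered control, and the log2 change was -0.90 (SE 0.11, limma's blocked adjusted p = 8.2e-04; SE 0.68, 0.65 without the block). GSTM4, a glutathione transferase of the mu class, had 61.8 and 41.6 FPKM in the control libraries, against 42.9 and 23.0 after esiFLI1. Its groups overlapped too, with 69.4% and 55.3% of the control within pairs and a log2 change of -0.67 (SE 0.11, limma's blocked adjusted p = 0.0025; 0.54 without the block). GSTM4 lies in a cluster of near-identical mu class genes and STEAP1 has the near copy STEAP1B, so how fragments were split between copies is uncertain.

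In all, 8 of the 10 genes had both esiFLI1 libraries below both controls, as did 17.3% of all tested genes. The call in the blocked fit held for the 10 genes in each blocked fit run on all 6 libraries. That fit has 2 residual degrees of freedom, and leaving out a library leaves fewer. Blocked fits without 1 library lean on the spread taken from other genes, so calls held there are no separate check. In them the log2 changes of the 10 genes stayed below 0. The 2 calls without the block were lost when any 1 of the 6 libraries was left out, and that of PRKCB also with a filter of 5 FPKM, quantile scaling or size factors (adjusted p 0.060 to 0.068). Without the block, leaving out a library moved the log2 change of FCGRT to between -1.60 (without esiGFP 2) and -0.19 (without esiGFP 1). GSTM4 ran from -1.11 (without esiFLI1 1) to -0.24 (without esiFLI1 2), and VRK1 from -1.13 (without esiFLI1 2) to -0.34 (without esiFLI1 1). Without the block but after a correction for transcript GC content, chosen after seeing the data, 8 of 10 were called, with FCGRT (adjusted p = 0.13) and GSTM4 (0.075) the exceptions in limma. With that correction limma called 1083 of the 12169 tested genes lower and 1662 higher.

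**Figure D3:**
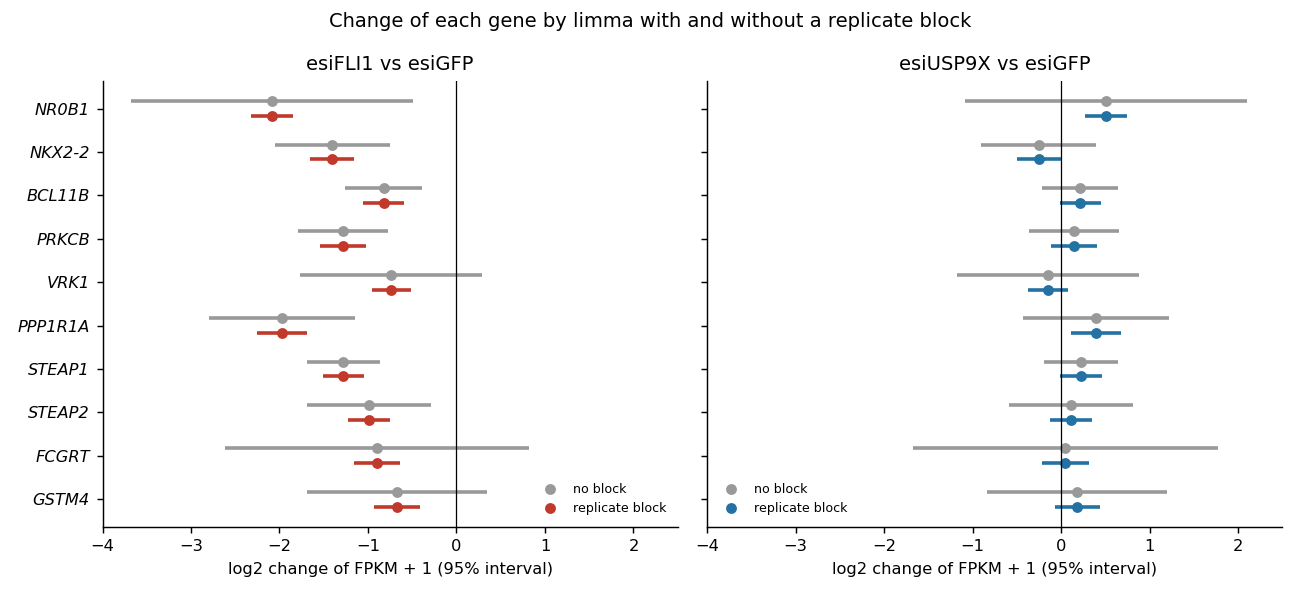
Log2 change of FPKM + 1 (horizontal axis) with its 95% interval for each of the 10 genes in esiFLI1 (left) and esiUSP9X (right) against esiGFP, in grey for limma without a replicate block and in colour with it. Points are the same in both fits, and the blocked intervals are shorter and lie entirely below 0 for the 10 genes in esiFLI1.

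The pairs of replicates differed in a way that followed base composition. Replicate 2 minus replicate 1 on the log2 scale was -1.13, -1.24 and -1.02 for NR0B1 in esiGFP, esiFLI1 and esiUSP9X, and -1.40, -1.23 and -1.02 for FCGRT. VRK1 showed the opposite, with 0.63, 0.79 and 0.66. The transcripts of FCGRT (60.3% GC) and NR0B1 (57.8%) are the richest in GC of the 10, and those of STEAP2 (36.9%) and VRK1 (40.1%) the poorest. Across the 10 genes the mean replicate difference and GC content had a Pearson correlation of -0.90, and across 11470 kept genes of -0.81. Genes within a library share its preparation and depth, so both are descriptions. BCL11B (49.7% GC) had differences of 0.08, 0.01 and 0.01. Whether GC content sets these differences was not tested.

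**Figure D4:**
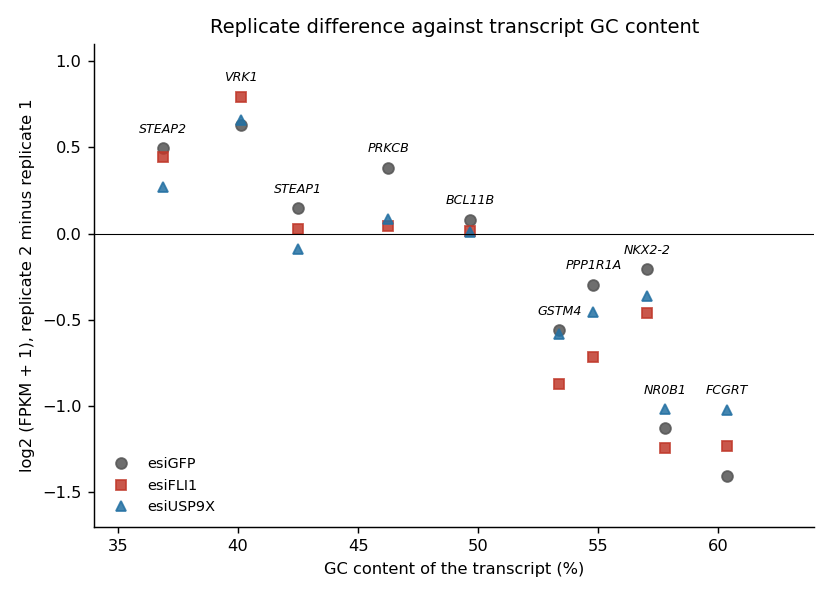
Replicate 2 minus replicate 1 of log2(FPKM + 1) (vertical axis) against GC content of the transcript in % (horizontal axis) for the 10 genes, with a point for each group. Points of 1 gene lie close together in the 3 groups, and they pass from above 0 for STEAP2 and VRK1 to near or below -1 for NR0B1 and FCGRT.

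The comparison of esiUSP9X with esiGFP asks whether the same RNAs moved when USP9X was lowered. None was called by limma in either fit (0 of 10), where 0.0247% of all tested genes were called without the block and 0.238% with it. The genes called in each fit included EEF1A1, whose listed 0 in the control libraries cannot be read as absence. At an unadjusted p under 0.05 limma had 0 of the 10 without the block, beside 0.937% of all tested genes, and 3 with it, beside 10.9%. Of the 10, 8 had a log2 difference above 0 and 2 below, with a median of 0.16 beside -0.01 over all tested genes. In both same-numbered pairs 5 genes were higher, as were 28.2% of all tested genes, and NKX2-2 and VRK1 were lower, as were 31.4%. NR0B1 was 84.2 and 41.1 FPKM in esiUSP9X, or 137% and 149% of its same-numbered controls. Its log2 difference of 0.50 had a blocked 95% interval of 0.27 to 0.74 and limma's blocked adjusted p = 0.15. PPP1R1A was 32.3 and 23.3 FPKM, 141% and 126% of control, with a log2 difference of 0.40 (interval 0.11 to 0.68, limma's blocked adjusted p = 0.31). NKX2-2 was 14.2 and 10.8 FPKM, 87.7% and 78.0% of control, with a log2 difference of -0.25 (interval -0.50 to -0.01, limma's blocked adjusted p = 0.45). Intervals without the block included 0 for NR0B1 (-1.09 to 2.10), PPP1R1A (-0.43 to 1.22) and NKX2-2 (-0.90 to 0.40).

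STEAP1 was 119 and 112 FPKM in esiUSP9X (log2 difference 0.22, blocked 95% interval -0.01 to 0.46) and BCL11B was 10.9 and 10.9 (0.21, -0.02 to 0.44). These 2 genes and PPP1R1A had both libraries above both controls, 3 of 10, as did 8.75% of all tested genes. GSTM4 was 70.8 and 46.9 FPKM (0.18, -0.07 to 0.44) and PRKCB was 59.8 and 63.6 (0.15, -0.12 to 0.41). STEAP2 was 30.4 and 36.8 FPKM (0.11, -0.13 to 0.35), FCGRT 128 and 62.8 (0.05, -0.22 to 0.31) and VRK1 83.8 and 133 (-0.15, -0.37 to 0.07). The lowest bound of the 10 blocked intervals is -0.50, for NKX2-2, and intervals without the block are wider, reaching -1.67 for FCGRT. Both knockdowns are measured against the same esiGFP libraries.

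The difference between the knockdowns was tested directly, esiUSP9X against esiFLI1. RNA of all 10 genes was higher in esiUSP9X in both same-numbered pairs, as was that of 41.5% of all tested genes. Limma called 4 without the block, STEAP1 (log2 difference 1.50), PPP1R1A (2.37), PRKCB (1.43) and BCL11B (1.04), with adjusted p from 0.019 to 0.0498 and a background of 0.419% called higher. Both esiUSP9X libraries were above both esiFLI1 libraries for 8 genes, the exceptions being FCGRT and VRK1, and for 18.4% of all tested genes. With the block 10 of 10 were called, where 20.2% of all tested genes were called higher, with adjusted p from 4.7e-06 for NR0B1 (2.59) to 0.0024 for VRK1 (0.59). The median difference of the 10 was 1.13, beside 0.02 over all tested genes. The 4 calls without the block were lost when any 1 of the 6 libraries was left out, and that of BCL11B also with no filter, a filter of 5 FPKM, quantile scaling or size factors (adjusted p 0.059 to 0.075).

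Close relatives of these genes were measured in the same libraries. Of 25 listed paralogs, 13 were kept, and in esiFLI1 limma called 1 higher and 0 lower without the block and 3 higher and 2 lower with it, 5 of 13. Of all tested genes, 2.81% were called in either direction without the block and 42.1% with it. The median log2 change of the paralogs was -0.01, beside -0.03 over all tested genes. PRKCA, another calcium-dependent protein kinase C, measured 4.86 and 4.43 FPKM after esiFLI1, against 1.76 and 1.67 in the controls. This was a rise of 1.05 (limma adjusted p = 0.041, blocked 3.5e-04) where PRKCB fell. Among the fits that kept PRKCA, its call held in 4 of 13 without the block and in 11 of 11 with it. PPP1R1C, a relative of PPP1R1A, went from 0.83 and 0.88 to 2.17 and 3.09 FPKM (0.96, limma's blocked adjusted p = 0.0012; 0.10 without the block). PPP1R1B, known as DARPP-32, fell in the blocked fit (-0.65, limma's blocked adjusted p = 0.0093; 0.42 without the block), a call lost without esiGFP 2 or esiFLI1 2 (highest blocked adjusted p 0.10).

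STEAP1B, a near copy of part of STEAP1, stood at 22.2 and 27.1 FPKM with esiGFP and at 22.1 and 24.2 with esiFLI1, a log2 difference of -0.08 beside -1.28 for STEAP1. STEAP3 was at -0.14, and STEAP4 was listed at 0 throughout. In the mu class, GSTM1 stood at -0.34, GSTM2 at -0.01 and GSTM3 at 0.01 beside -0.67 for GSTM4, and none of the 3 was called. VRK2 (0.03) and VRK3 (0.08) were not called either. NKX2-5, a cardiac homeobox factor, was called lower in the blocked fit alone (-0.47, limma's blocked adjusted p = 0.033; 0.81 without the block), and not without esiGFP 1, esiFLI1 1 or esiFLI1 2 (up to 0.33) or with the GC correction. Relatives of NR0B1 and BCL11B, namely NR0B2 and BCL11A, stood at 0.0250 FPKM or less in every library.

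**Figure D5:**
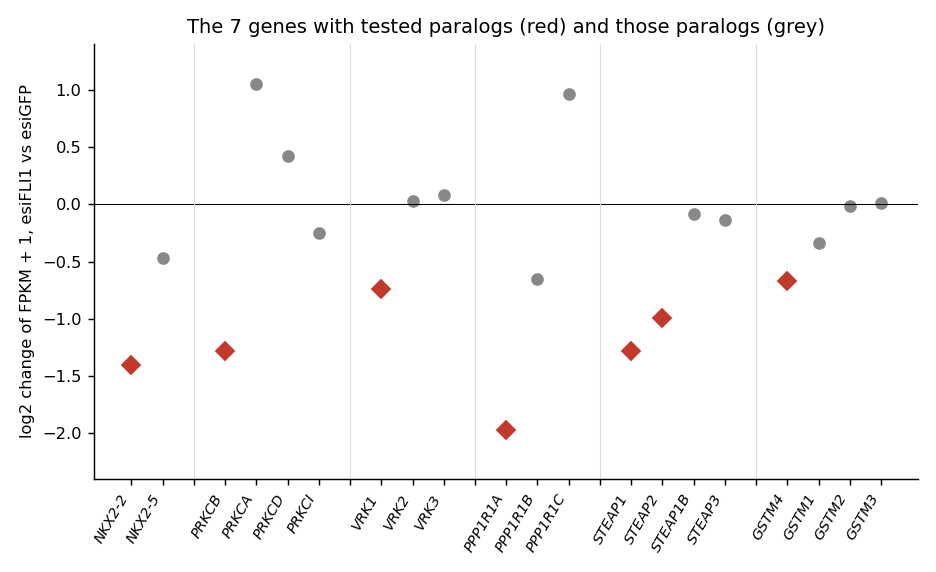
Log2 change of FPKM + 1 in esiFLI1 against esiGFP (vertical axis) for 7 of the genes (red diamonds) and their 13 tested paralogs (grey circles), grouped by family. Each of the 7 lies below its own paralogs, with PRKCA (1.05) and PPP1R1C (0.96) the highest of them.

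Known binding partners, substrates and enzymes of these genes' products were listed as well. Of 20 listed partners 17 were kept, and in esiFLI1 limma called 0 without the block (2 of 17 at an unadjusted p under 0.05, beside 15.8% of all tested genes) and 3 higher and 4 lower with it, 7 of 17 beside the 42.1% above. B2M, the light chain that pairs with FCGRT, had 1890 and 1708 FPKM in the control libraries, against 1891 and 1670 after esiFLI1 (log2 change -0.02, not called). BANF1, a substrate of VRK1, was at -0.25 and not called. PPP1CC, a catalytic subunit of protein phosphatase 1, fell by 0.55 in the blocked fit (limma's blocked adjusted p = 0.0039; 0.38 without the block), and the protein kinase A subunits PRKACA (0.59) and PRKACB (0.72) rose in it (limma's blocked adjusted p = 0.0048 and 0.0021; 0.52 and 0.43 without the block). NR5A1 and NR5A2, the receptors that NR0B1 is known to repress, stood at 0.00865 FPKM or less in every library.

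Other known targets of EWS-FLI1 set these 10 genes in context. Of 29 kept activated targets outside the 10, limma called 0 higher and 5 lower in esiFLI1 without the block and 3 higher and 18 lower with it. Of all tested genes 0.23% were called lower without the block, and 21.6% lower and 20.6% higher with it. The median log2 change of the 29 was -0.64, beside -0.03 over all tested genes. This list was chosen with results of these data known, so its direction is not independent evidence. FEZF1, a zinc finger factor, fell by 1.74, the neuropeptide receptor NPY1R by 1.33, the G1 cyclin CCND1 by 1.13 and caveolin CAV1 by 1.05. The 3 called higher with the block were CALCB (0.52), UPP1 (0.65) and PDGFC (0.62), with UPP1 lost without esiGFP 2 or either esiFLI1 library (up to 0.065). Of 15 listed repressed targets 13 were kept, and limma called 11 higher and 0 lower without the block (11 and 1 with it). Their median was 2.97, and 2.58% of all tested genes were called higher without the block and 20.6% with it. CD44, 1 of the 11, had 4.51 and 4.99 FPKM in esiFLI1, against 0.22 and 0.17 in esiGFP. It passed the filter only through esiFLI1, which favoured a rise. Repressed targets with the smallest blocked p were IGFBP5 (5.87), LOX (4.42), SPRY1 (4.05) and DKK1 (6.56). In esiUSP9X limma called 0 of the 29 and 0 of the 13 in either fit, with medians of 0.01 and 0.12 (0 and 1 at an unadjusted p under 0.05 without the block, where 0.937% of all tested genes were, and 6 and 5 with it, where 10.9% were). Markers of blood and endothelial cells were low, while the epithelial keratin KRT18 stood at 129 to 221 FPKM in the 6 libraries and was not called. The 5 blood markers summed to 3.88 and 2.77 FPKM with esiGFP and 7.99 and 4.59 with esiFLI1, most of it CD68, and the 4 endothelial markers to 0.21 and 0.14 against 1.50 and 1.57, mainly KDR. Of the 4 epithelial markers KRT8 rose in the blocked fit in both knockdowns (1.36 in esiFLI1, 0.86 in esiUSP9X; limma's blocked adjusted p = 6.0e-05 and 0.021, and 0.22 and 1 without the block), with CDH1 listed at 0. The call of KRT8 in esiUSP9X was lost without any 1 of the esiFLI1 or esiUSP9X libraries (up to 0.18). Their part in the results was not tested.

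The profile shared by the 10 genes was taken as the mean of their standardised log2 values over the 6 libraries. That mean was 0.53 and 0.42 in esiGFP, -0.97 and -1.25 in esiFLI1 and 0.74 and 0.52 in esiUSP9X. PPP1R1A followed the mean of the other genes most closely (Pearson r 0.99 over 6 libraries), and VRK1 (0.46) and FCGRT (0.60) least. Among 4025 other genes whose log2 values spanned at least 1 unit, those most like the shared profile were the hexokinase HK2 (r 0.9999), the ETS factor ETV4 (0.997), the tight junction gene CLDN1 (0.995), the angiogenic factor VEGFA (0.995) and FEZF1 (0.995). HK2 went from 15.7 and 14.7 FPKM in esiGFP to 6.12 and 5.04 in esiFLI1 and was 18.2 and 15.6 in esiUSP9X. These values rest on 6 libraries in 3 groups and share the low level in esiFLI1.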

How the data were processed

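Stranded libraries were made from 2 µg of total RNA with removal of ribosomal RNA and read as single ends of 75 nt, per the labels' protocols. The submitters' processing notes name TopHat, Cufflinks, Cuffdiff, hg19 and GRCh37, without versions or roles, with annotation and counting strand not given in the sources used here. The deposited table holds FPKM made by the authors, per gene symbol and library. No counts were recovered, so depth, counting intervals and detection limits are unknown.

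A stray last line (1) was dropped, and the filter was 1 FPKM or more in 2 or more of the 6 libraries. The model was fitted to log2(FPKM + 1) by limma 3.58.1 under R 4.3.3 (lmFit, eBayes with trend, all 6 libraries, two-sided), a scale that understates changes of low genes. The procedure was tested on simulated data with 200 changed genes among 12062. The simulated replicate differences and spread were taken from the blocked fit to these data, which favoured that fit. Changed genes were also far fewer than the 5125 that the blocked fit called in esiFLI1. The rates below therefore do not show which fit suits the data better. Without the block the procedure called 0% of log2 changes of 1 and 17.0% of those of 2, with 0 false calls. The blocked fit called 76.1% and 91.1%, with 6 false calls. A gene not called without the block may therefore still have changed. Deviations of same-numbered libraries correlated across genes at 0.589 to 0.647 between the 3 pairs of groups, so pairing was taken from the data, and the blocked value is printed where it changes a call. GC content came from the longest coding transcript of a symbol in GENCODE 29 (94.3% of kept genes). Promoters came from RefSeq. Alternatives were other pseudocounts, filters and scalings, leaving out each library, and a GC correction added later. The 10 genes, the lists and the naming rule were chosen with earlier results of these data known. The rule names the 10 genes, the knockdown targets, up to 4 genes of each target list by smallest blocked adjusted p, and the 5 genes most like the shared profile. EEF1A1, CD44, the 3 activated targets called higher and genes named from the paralog, partner and marker lists beyond their counts were chosen after their values were seen.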

Additional observations from a re-analysis of the deposited data

How the results depend on the processing

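The directions of the 10 genes in esiFLI1 against esiGFP, and in esiUSP9X against esiFLI1, were the same under the 25 alternatives run for each, but not the sizes. Without a library, esiUSP9X against esiFLI1 ran from 0.33 to 1.56 for FCGRT and from 0.42 to 1.29 for GSTM4 (lowest without esiFLI1 2, highest without esiFLI1 1), and from 0.19 (without esiFLI1 1) to 0.99 (without esiFLI1 2) for VRK1. Without esiUSP9X 1 they were 0.43, 0.56 and 0.92, and without esiUSP9X 2 1.46, 1.15 and 0.26. The replicate number as a block decided most calls. In esiFLI1 against esiGFP the 2 genes called of the 10 became 10 with the replicate block, alone or with another pseudocount, filter, scaling, GC correction or left-out library. They became 3 with quantile scaling or size factors (PRKCB lost at 0.068 and 0.060, NKX2-2 gained at 0.041 and 0.043, PPP1R1A at 0.032 and 0.033), 1 with a filter of 5 FPKM (PRKCB lost at 0.062), 8 with the GC correction and 0 with only the 2 groups compared, and 0 to 10 over the fits that left out a library (0 in all 6 without the block). Over all genes the 342 calls became 558 with no filter, 139 with the filter of 5 FPKM, 2745 with the GC correction and 63 with only the 2 groups. With the replicate block they were 5125, and with it 5104 (pseudocount 0.1), 4007 (5 FPKM), 4710 (quantile), 5207 (size factors) and 6394 (GC), and 1 to 4771 over fits without a library (1 to 69 without the block). Calls higher made up 91.8% without the block, 48.8% with it, 60.5% with the GC correction and 49.5% with both. In esiUSP9X against esiFLI1 the 4 of 10 became 10 in every blocked fit, 8 with the GC correction, 0 with only the 2 groups and 0 to 10 without a library. With the GC correction 2731 of 12169 tested genes were called, 39.4% of them higher. All genes called, 375, became 154 (5 FPKM), 2731 (GC), 81 (2 groups), 4996 (block), and with the block 4969 (pseudocount), 3890 (5 FPKM), 4863 (quantile), 5118 (size factors) and 6347 (GC), and 0 to 5370 without a library. In esiUSP9X against esiGFP 0 of the 10 were called under any alternative. The 3 genes called stayed at 3 in number with the pseudocount, either filter, quantile or size factors alone and became 4 with GC alone. With the block they were 29, with the block and the pseudocount 26, 5 FPKM 28, quantile 34, size factors 29 or GC 17, and without a library 1 to 266 (1 to 4 without the block).

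In that comparison signs of uncalled differences turned. Over the fits that left out a library, with and without the block, log2 differences ran from -0.060 to 1.07 for NR0B1 (-0.0045 without esiUSP9X 1), -0.14 to 0.36 for STEAP2 (-0.02 without esiUSP9X 2), -0.65 to 0.75 for FCGRT (-0.46 without esiUSP9X 1), -0.11 to 0.47 for GSTM4 (-0.10 without esiGFP 2), -0.046 to 0.34 for PRKCB and -0.48 to 0.18 for VRK1 (0.17 without esiGFP 2). The lowest values came without esiGFP 1 (STEAP2, PRKCB), esiGFP 2 (NR0B1, FCGRT), esiUSP9X 1 (GSTM4) and esiUSP9X 2 (VRK1). NKX2-5 in esiFLI1 ran from -1.13 to 0.19 (0.19 without esiGFP 1). Of the other targets named by smallest p, FEZF1, NPY1R, CCND1 and CAV1 were called in 12 of 12 blocked fits and in 3 to 7 of the 14 without the block, and IGFBP5, LOX, SPRY1 and DKK1 in 12 and in 10 or 11. The cause of these changes was not tested. Where a library was left out, the lone library of its group was assumed to vary like the others. Depth is unknown, so no limit of detection can be given.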

Other observations

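Some of the 10 genes lie next to each other in RefSeq's order of coding genes: STEAP1 beside STEAP2, and VRK1 beside BCL11B. The nearest coding genes on either side gave 16 other genes, of which 9 were kept. In esiFLI1 limma called 0 of the 9 without the block (2 at an unadjusted p under 0.05, beside 15.8% of all tested genes) and 4 with it, 3 lower and 1 higher, beside 42.1% of all tested genes, with a median log2 change of -0.22. PDE1B, a phosphodiesterase gene beside PPP1R1A, was 2.22 and 1.50 FPKM in esiGFP, 0.77 and 0.50 in esiFLI1 and 2.46 and 1.64 in esiUSP9X (log2 change -0.80 in esiFLI1, blocked adjusted p = 0.0017; 0.17 without the block). CACNG3, a calcium channel subunit gene beside PRKCB, changed by -0.59 in esiFLI1 (limma's blocked adjusted p = 0.010, and 0.18 without the block). Its call was lost without either esiFLI1 library. CACNG3 had 1.24 and 1.08 FPKM in esiGFP and stayed under 1 FPKM elsewhere. This gene, 1 of the 3 called lower, thus passed the filter only through the controls, which favoured a fall. It was not tested without either esiGFP library. PAPOLA, the poly(A) polymerase gene beside VRK1, changed by -0.45 (limma's blocked adjusted p = 0.0085, and 0.61 without the block). The call of PAPOLA was lost without esiFLI1 1 or with quantile scaling. The neighbours of NR0B1 and NKX2-2 stayed under 1 FPKM. These neighbours were looked up after the values of the 10 genes had been seen.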
